A study of Mus musculus with 18 samples.

Results

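Adrenergic receptors, the kinases and arrestin that switch them off, and the Gq branch that carries the alpha-1 signal were examined in mouse cardiac ventricle after deletion of the serum response factor gene (Srf), with and without phenylephrine (PE). The set held 9 genes: the receptors Adra1a, Adra1b and Adrb1, the receptor kinases Grk5 and Adrbk1 (also written Grk2), the arrestin Arrb1, the G protein alpha subunits Gnaq and Gna11, and the phospholipase Plcb1. Members were every probe set that the platform annotation gave to 1 of these genes alone. A probe set is the group of short oligonucleotides on an Affymetrix array that together report on a transcript. There were 18 such probe sets for 6 of the 9 genes, among 18193 genes with a symbol in the annotation. Adra1a, Adrb1 and Adrbk1 had no probe set under any of these names and were not analysed here.

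The data came from 18 arrays, with 1 heart on each, from male mice given as strain CR7BL6 and 10 weeks of age. The mutants are named SRFHKO, and the controls were littermates named SRF-flex2neo. Mice of both genotypes received 0.7 mg of tamoxifen on 3 days, so tamoxifen itself was shared by every group. At day 25 after tamoxifen there were 3 hearts in each of 4 groups, which were SRFHKO with PE, control with PE, SRFHKO without PE and control without PE. At day 8 there were 4 SRFHKO and 2 control hearts, without PE. Osmotic minipumps gave 80 mg of PE per kg per day, starting on day 10 and ending on day 25. Neither the promoter that drives the deletion nor the cells in which it acts is named in the labels.

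Adrenaline and noradrenaline act on cardiac muscle through beta receptors, which couple mainly to Gs and cyclic AMP, and through alpha-1 receptors, which couple to Gq and G11. Gq and G11 activate phospholipase C beta, whose products release calcium from internal stores and activate protein kinase C, and this pathway is a well known driver of hypertrophic growth in heart muscle cells. PE is an agonist of alpha-1 receptors. Receptor kinases of the GRK family phosphorylate receptors that have been activated, arrestins then bind and uncouple them from G proteins, and Grk5 can also enter the nucleus of heart muscle cells.

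Of the 6 measured genes, 5 had promoter sequence in the RefSeq table used here (build GRCm38.p6), with 6 windows in all because Adra1b had 2. Arrb1 had no entry. Each window covers 250 bases before an annotated transcript start and was searched on both strands for 4 motifs. Serum response factor binds the CArG box, so it was searched first, and it had no match in the 6 windows, while 1.47% of the 32851 windows of all genes held a match. The cyclic AMP response element, TGACGTCA, had no match either, against 1.55% of all windows. The GC box, GGGCGG, had a match in 4 of the 6 windows, against 32.7% of all windows. The MCAT element, CATTCC, had a match in 1, that of Gna11, against 12.6% of all windows. The CArG box was searched as CC, 6 bases of A or T, and GG, with no mismatch allowed. A missing match says only that these letters are not in the window. Sequence is shown for Grk5, the gene whose level differed with genotype, and for Gnaq, the subunit that gives the pathway its name. Both lie on the plus strand, the Grk5 stretch at chr19:60889499-60889559 and the Gnaq stretch at chr19:16132434-16132683. The Grk5 stretch is the 61 bases of its window that precede the annotated gene. The rest of that window lies within the annotated gene, so for Grk5 the search covered only these 61 bases before the gene. The Gnaq stretch is the whole window, and capitals mark its 4 GC boxes, those read on the opposite strand appearing as CCGCCC.
Grk5: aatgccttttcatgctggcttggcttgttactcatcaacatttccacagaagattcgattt
Gnaq: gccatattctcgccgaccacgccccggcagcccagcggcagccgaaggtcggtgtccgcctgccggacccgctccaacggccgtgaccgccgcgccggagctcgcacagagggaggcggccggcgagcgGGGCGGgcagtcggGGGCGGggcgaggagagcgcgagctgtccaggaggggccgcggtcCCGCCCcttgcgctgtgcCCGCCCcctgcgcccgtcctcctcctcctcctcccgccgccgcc

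The series as a whole bears on these results in a few ways. All 7 cardiomyocyte markers lay at a log2 level of 11.33 or more on every array, and all 3 skeletal muscle markers lay below the filter on low signal. At day 25 the arrays of SRFHKO hearts were brighter before scaling, with trimmed mean signals of 75.4 to 84.9 in SRFHKO with PE, against 52.2 to 74.8 in control with PE, and of 70.7 to 83.0 in SRFHKO without PE, against 46.3 to 68.0 in control without PE. The Gapdh control probes, whose 3′ to 5′ ratio tracks RNA integrity, gave 0.820 to 0.835 in SRFHKO without PE, against 0.868 to 0.945 in control without PE, and the ranges overlapped with PE. At day 8 the Gapdh ratio was 0.850 to 0.936 in SRFHKO hearts, against 1.01 to 1.02 in control hearts. The beta-actin ratio overlapped in both day 25 pairs. It was 1.83 to 2.02 in SRFHKO without PE, against 2.00 to 2.03 in control without PE. With PE it was 1.87 to 2.31 in SRFHKO, against 1.75 to 2.02 in control. The summed signal of the 7 cardiomyocyte markers was 57711 to 60892 in SRFHKO with PE, against 64152 to 75856 in control with PE, and 58009 to 69697 in SRFHKO without PE, against 73189 to 79783 in control without PE. After scaling to a common trimmed mean, 4 of these 7 markers were lower in SRFHKO hearts averaged over PE and 0 were higher. Of 12616 genes counted by 1 probe set each, 3.41% were lower and 3.43% higher in that comparison. The 5 fibroblast, 5 smooth muscle, 5 endothelial and 5 macrophage markers had 0 past the test in that comparison. The median log2 difference there was −0.30 for the endothelial markers and −0.29 for the cardiomyocyte markers. The summed endothelial signal was 1116 to 1204 in SRFHKO without PE, against 1225 to 1795 in control without PE. With PE it overlapped, at 1120 to 1690 against 1428 to 1855. The 2 Srf probe sets ranged over 7.16 to 8.21 and 5.02 to 7.23 on the log2 scale, and neither passed the test in any of 9 comparisons, with a smallest adjusted p of 0.148, so these probe sets gave no check of the genotype labels.

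Grk5 was the member whose RNA differed with genotype. At day 25 it was higher in SRFHKO hearts than in control hearts by 2.53-fold averaged over PE. At day 8 the 2 genotypes lay together. Grk5 encodes a kinase that phosphorylates activated adrenergic and other receptors at the cell membrane. All levels below are log2(scaled signal + 2), after each array was scaled to a common trimmed mean of 89.98. The brightest probe set of a gene is described first.

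For the brighter Grk5 probe set, 1449514_at, the log2 levels were 9.32, 9.36 and 9.44 in SRFHKO hearts with PE, against 7.61, 8.09 and 8.28 in control hearts with PE. Without PE they were 8.27, 8.91 and 8.97 in SRFHKO hearts, against 7.88, 7.27 and 7.10 in control hearts. In both pairs every SRFHKO heart lay above every control heart, and the 3 SRFHKO hearts with PE formed the tightest and highest group of all. In scaled signal the group means were 661 ± 29.5 in SRFHKO with PE, 257 ± 58.7 in control with PE, 428 ± 105 in SRFHKO without PE and 174 ± 52.9 in control without PE (SD, n = 3 each).

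By limma with Benjamini-Hochberg adjustment over all 27022 probe sets tested, the Grk5 difference between SRFHKO and control was 1.38 ± 0.20 (log2, SE) with PE, or 2.60-fold (adjusted p = 0.00198). Without PE it was 1.30 ± 0.20, or 2.46-fold (adjusted p = 0.00352). Averaged over PE it was 1.34 ± 0.14, with a 95% interval of 1.04 to 1.64 (adjusted p = 2.72e-05). Among the 27022 probe sets ordered from the largest rise downwards in the averaged comparison, this probe set stood 40th and the second Grk5 probe set 21st. With the brightness of each array added to the fit, the averaged difference of 1449514_at was 1.36 ± 0.20 (adjusted p = 0.00319). The part of the Gapdh 3′ to 5′ ratio and of the lower cardiomyocyte markers in this difference was not tested. In whole ventricle, fewer cells of a type and less RNA per cell cannot be told apart.

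The second Grk5 probe set, 1436672_at, had log2 levels of 6.98, 7.02 and 7.10 in SRFHKO hearts with PE, against 5.72, 6.18 and 5.57 in control hearts with PE. Without PE the levels were 6.21, 7.17 and 6.61 in SRFHKO hearts, against 5.75, 5.37 and 3.57 in control hearts. The groups did not overlap in either pair, and the third control heart without PE lay far below the other two. The difference was 1.77 ± 0.40 without PE (adjusted p = 0.0281), 1.21 ± 0.40 with PE (adjusted p = 0.168) and 1.49 ± 0.28 averaged over PE (adjusted p = 0.00456). Without the third control heart the difference without PE was 1.10 (adjusted p = 0.0852), and it was 1.51 (adjusted p = 0.113) and 1.80 (adjusted p = 0.0879) without the second and the third SRFHKO heart. With array brightness in the fit this probe set no longer passed the averaged comparison, at 0.99 ± 0.36 (adjusted p = 0.255). Across the 18 arrays the 2 Grk5 probe sets correlated with a Pearson r of 0.85, which is a description of arrays that also share group and scaling.

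At day 8 the log2 levels of 1449514_at were 7.80, 7.77, 8.07 and 7.83 in SRFHKO hearts, against 7.79 and 7.65 in control hearts, and those of 1436672_at were 5.50, 5.51, 6.24 and 6.22 in SRFHKO hearts, against 5.53 and 6.05 in control hearts. The groups overlapped for both probe sets. The differences were 0.15 ± 0.22, with a 95% interval of −0.30 to 0.60 (adjusted p = 0.871), and 0.08 ± 0.42 (adjusted p = 0.974). The test of whether the deletion difference at day 25 without PE exceeded that at day 8 gave 1.15 ± 0.30 for 1449514_at, with a 95% interval of 0.53 to 1.77 and an unadjusted p of 0.000998 (adjusted p = 0.125). It gave 1.69 ± 0.58 for 1436672_at (adjusted p = 0.243). Neither passed the threshold after adjustment.

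**Figure D1:**
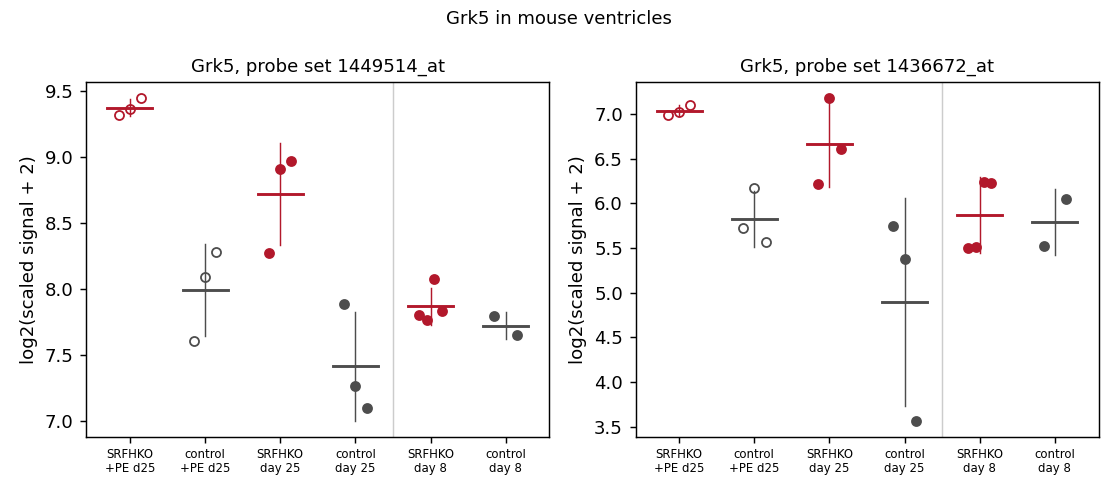
Log2(scaled signal + 2) of the 2 Grk5 probe sets on each array, by group, with red for SRFHKO, grey for control and open points for PE; horizontal bars are group means and vertical lines 1 SD. For 1449514_at the SRFHKO hearts at day 25 lie at 8.27 to 9.44 and the control hearts at 7.10 to 8.28, while the day 8 groups lie together at 7.65 to 8.07.

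Of the 16 member probe sets that passed the filter on low signal, 2 passed the test in SRFHKO against control averaged over PE at day 25, both of Grk5, where 5.85% of all probe sets passed. The count was 1 with PE, against 0.929% of all probe sets, and 2 without PE, against 2.18% of all probe sets. At day 8 it was 0, against 0.159% of all probe sets, and 0 members had an unadjusted p under 0.05 there, against 11.8% of all probe sets. At an unadjusted p under 0.05 the member counts were 5 averaged over PE, against 20.9% of all probe sets, 4 with PE, against 12.8%, and 3 without PE, against 17.4%. The median log2 difference of the 16 was 0.13 averaged over PE, against −0.03 for all probe sets. Some of these probe sets share a gene and are not independent of each other. The 2 that did not pass the filter, Gnaq 1447593_x_at at 1.14 to 4.48 and Plcb1 1421170_a_at at 1.79 to 3.57, were not tested.

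**Figure D2:**
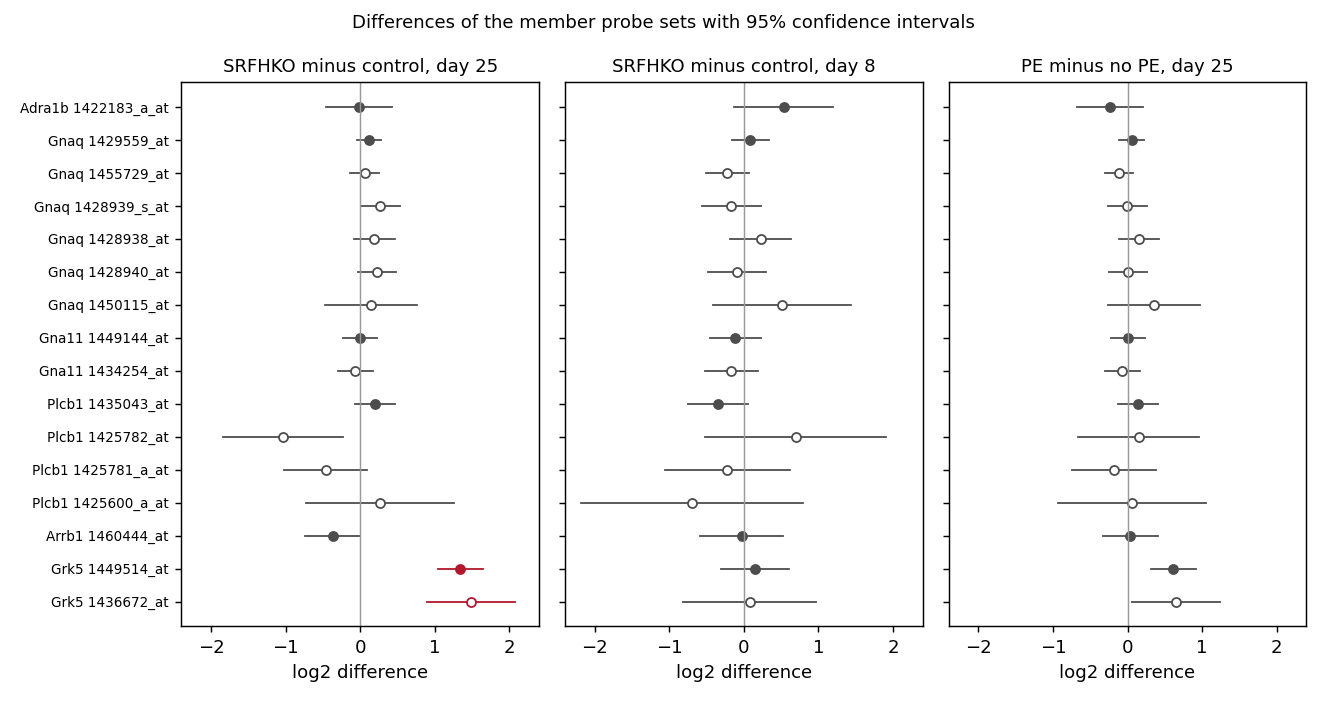
Log2 difference of each member probe set with its 95% confidence interval, for SRFHKO minus control at day 25 averaged over PE, SRFHKO minus control at day 8, and PE minus no PE averaged over genotype. Filled points are the brightest probe set of each gene and red marks adjusted p under 0.05. The 2 Grk5 probe sets, at 1.34 and 1.49, are the red points, both in the left panel.

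Adra1b encodes the alpha-1B receptor, 1 of the receptors on which PE acts. Its probe set 1422183_a_at had log2 levels of 5.29, 4.48 and 4.88 in SRFHKO hearts with PE, against 4.88, 5.21 and 4.98 in control hearts with PE. Without PE they were 5.80, 5.10 and 4.85 in SRFHKO hearts, against 4.81, 4.98 and 5.60 in control hearts. At day 8 they were 5.79, 5.31, 5.41 and 5.20 in SRFHKO hearts, against 4.49 and 5.28 in control hearts. The genotypes overlapped in all 3 pairs. The day 25 difference averaged over PE was −0.01 ± 0.21, with a 95% interval of −0.45 to 0.43 (adjusted p = 0.986), and that at day 8 was 0.54 ± 0.32, with an interval of −0.13 to 1.20 (adjusted p = 0.550). The day 25 interval leaves room for a change of moderate size in either direction.

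Gnaq encodes the alpha subunit of Gq. Its brightest probe set, 1429559_at, had log2 levels of 8.42, 8.22 and 8.31 in SRFHKO hearts with PE, against 8.16, 8.07 and 7.92 in control hearts with PE. Without PE they were 8.14, 8.18 and 8.02 in SRFHKO hearts, against 8.25, 8.09 and 8.10 in control hearts. The groups did not overlap with PE and overlapped without it. The difference with PE was 0.27 ± 0.11, with an unadjusted p of 0.0272 and an adjusted p of 0.304, and averaged over PE it was 0.12 ± 0.08, with a 95% interval of −0.05 to 0.28 (adjusted p = 0.428). At day 8 it had levels of 7.88, 7.91, 7.76 and 7.72 in SRFHKO hearts, against 7.82 and 7.64 in control hearts, a difference of 0.09 ± 0.12 (adjusted p = 0.855). The 6 Gnaq probe sets that passed the filter had averaged differences of 0.06 to 0.27, with a smallest adjusted p of 0.225, and none passed the test. They followed each other poorly, with pairwise r of −0.589 to 0.641 across the 18 arrays.

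Gna11 encodes the alpha subunit of G11, which shares receptors and phospholipases with Gq. Its brightest probe set, 1449144_at, had log2 levels of 9.40, 9.10 and 9.31 in SRFHKO hearts with PE, against 9.04, 8.98 and 9.06 in control hearts with PE. Without PE they were 9.17, 9.16 and 8.75 in SRFHKO hearts, against 9.42, 9.0 and 9.39 in control hearts. The genotypes did not overlap with PE and overlapped without it. The averaged difference was 0.00 ± 0.11, with a 95% interval of −0.23 to 0.23 (adjusted p = 0.997). The difference was 0.25 ± 0.15 with PE and −0.25 ± 0.15 without PE. The interaction of PE and genotype was 0.49 ± 0.22, with an unadjusted p of 0.0354 and an adjusted p of 0.651. The other Gna11 probe set, 1434254_at, had an averaged difference of −0.07 ± 0.11 and an interaction of 0.23 ± 0.22 (adjusted p = 0.852).

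The levels of the same Gna11 probe set, 1449144_at, separated by day. The 12 day 25 hearts lay at log2 levels of 8.75 to 9.42, and at day 8 the levels were 7.70, 7.87, 7.62 and 7.68 in SRFHKO hearts, against 8.13 and 7.53 in control hearts. No day 25 heart overlapped with the 6 day 8 hearts. The second probe set, 1434254_at, lay at 7.66 to 8.41 at day 25 and at 7.89 to 8.24 at day 8, and the 2 probe sets had an r of −0.09 across the 18 arrays. Trimmed mean signals before scaling were 46.3 to 84.9 at day 25 and 110 to 147 at day 8, and the summed signal of the 3 atrial markers was 2628 to 13321 at day 25 and 209 to 1830 at day 8. No test was made of the day difference. With 2 probe sets that disagree, the level of Gna11 by day is uncertain. The brightest Gnaq probe set, 1429559_at, also separated by day, at 7.92 to 8.42 at day 25 and 7.64 to 7.91 at day 8. Gnaq 1455729_at did not, at 7.56 to 7.94 at day 25 and 7.69 to 8.25 at day 8.

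**Figure D3:**
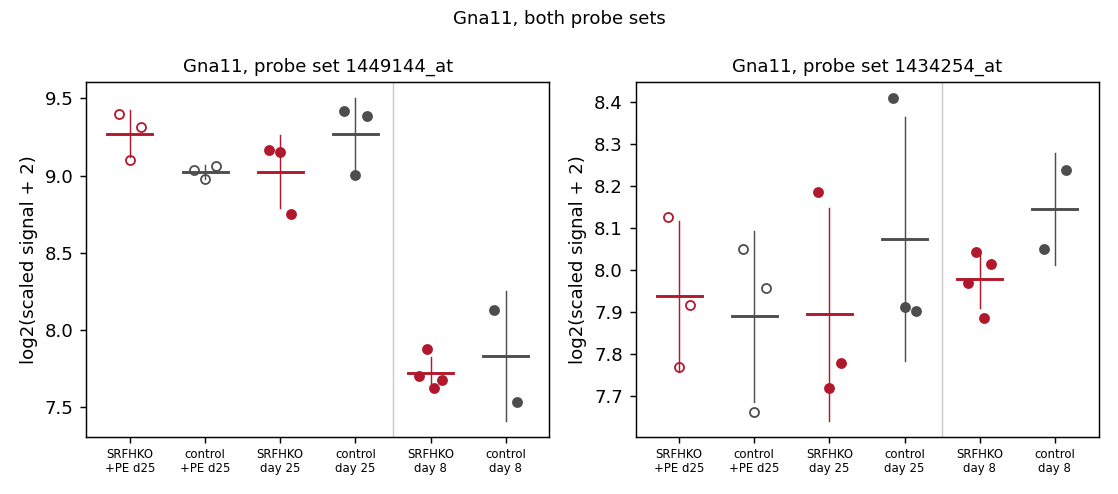
Log2(scaled signal + 2) of the 2 Gna11 probe sets on each array, by group, with red for SRFHKO, grey for control and open points for PE; bars are group means and lines 1 SD. 1449144_at lies at 8.75 to 9.42 on the day 25 arrays and at 7.53 to 8.13 on the day 8 arrays, while 1434254_at lies between 7.66 and 8.41 throughout.

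Plcb1 encodes phospholipase C beta 1, an effector of Gq and G11. Its brightest probe set, 1435043_at, had log2 levels of 7.02, 6.64 and 6.72 in SRFHKO hearts with PE, against 6.33, 6.73 and 6.32 in control hearts with PE. Without PE they were 6.78, 6.52 and 6.26 in SRFHKO hearts, against 6.38, 6.48 and 6.53 in control hearts. At day 8 they were 6.35, 6.03, 6.19 and 5.75 in SRFHKO hearts, against 6.43 and 6.41 in control hearts. The genotypes overlapped in both day 25 pairs, and at day 8 all 4 SRFHKO hearts lay below both control hearts. The averaged difference at day 25 was 0.20 ± 0.13 (adjusted p = 0.413) and that at day 8 was −0.34 ± 0.19 (adjusted p = 0.521).

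A dimmer Plcb1 probe set, 1425782_at, had log2 levels of 2.74, 4.44 and 3.32 in SRFHKO hearts without PE, against 5.59, 4.41 and 5.51 in control hearts without PE. With PE they were 4.44, 3.95 and 4.46 in SRFHKO hearts, against 4.61, 5.10 and 4.35 in control hearts. The groups overlapped in both pairs. The difference was −1.67 ± 0.55 without PE, with an unadjusted p of 0.00661 and an adjusted p of 0.115, and −1.03 ± 0.39 averaged over PE (adjusted p = 0.126). It therefore had the opposite sign to the brightest probe set and did not pass the test. Another dim one, 1425781_a_at, lay at 3.69 to 4.38 in SRFHKO hearts without PE, below 4.68 to 5.05 in control hearts without PE. With PE its groups overlapped, at 3.85 to 4.52 against 4.23 to 4.54. For 1425600_a_at the genotypes overlapped in both day 25 pairs. Neither of these passed the test in any of 9 comparisons. Pairs of Plcb1 probe sets correlated with r of −0.074 to 0.544 across the 18 arrays.

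Arrb1 encodes beta-arrestin 1, which binds phosphorylated receptors. Its probe set 1460444_at had log2 levels of 5.54, 5.79 and 5.69 in SRFHKO hearts with PE, against 5.82, 6.36 and 6.11 in control hearts with PE. Without PE they were 6.32, 5.77 and 4.99 in SRFHKO hearts, against 5.95, 5.92 and 6.16 in control hearts. At day 8 they were 5.91, 5.86, 5.68 and 5.88 in SRFHKO hearts, against 5.67 and 6.05 in control hearts. The genotypes did not overlap with PE, where all 3 SRFHKO hearts were lower, and overlapped elsewhere. The averaged difference was −0.37 ± 0.18, with an unadjusted p of 0.0496 and an adjusted p of 0.238.

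**Figure D4:**
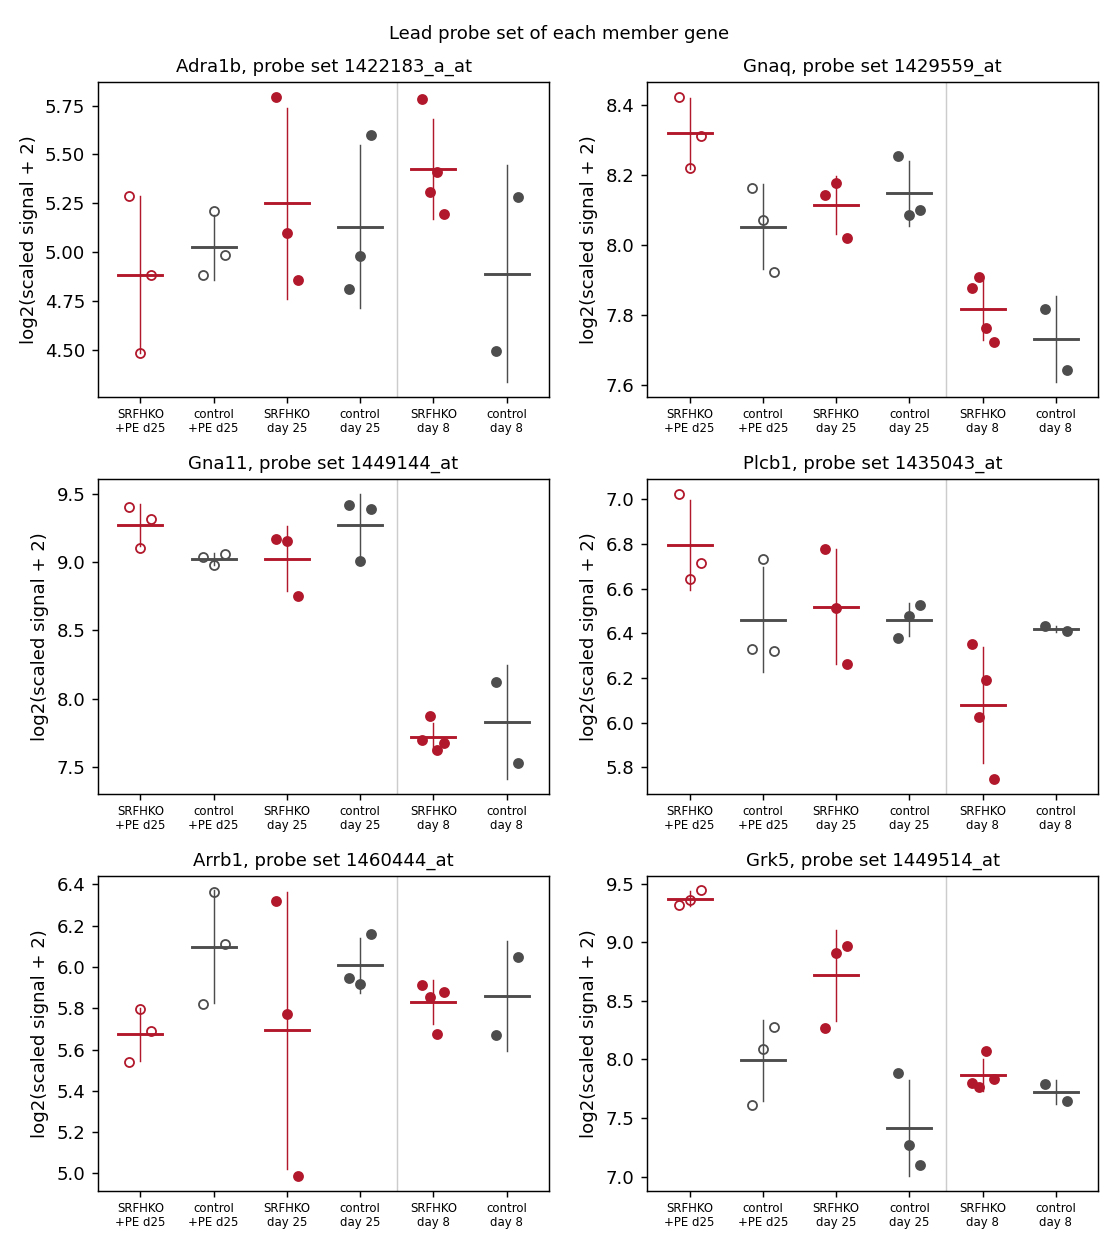
Log2(scaled signal + 2) of the brightest probe set of each of the 6 measured member genes on each array, by group, with red for SRFHKO, grey for control and open points for PE; bars are group means and lines 1 SD, and each panel has its own axis. SRFHKO and control hearts at day 25 separate with and without PE for Grk5, while those of Adra1b and Plcb1 overlap in both pairs.

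The PE comparisons ask whether chronic delivery of an alpha-1 agonist moved the genes that carry its signal. No member passed the test with PE against without PE averaged over genotype, where 0.551% of all probe sets passed, and 2 members, both of Grk5, had an unadjusted p under 0.05, against 12% of all probe sets. The difference of 1449514_at between PE and no PE was 0.66 ± 0.20 in SRFHKO hearts (adjusted p = 0.231), 0.58 ± 0.20 in control hearts (adjusted p = 0.348) and 0.62 ± 0.14 averaged over genotype, with an unadjusted p of 0.000408 and an adjusted p of 0.0587. In SRFHKO hearts all 3 with PE lay above all 3 without PE, and in control hearts the groups overlapped. The averaged value passed the test at 0.73 (adjusted p = 0.0155) without the first control heart without PE and at 0.71 (adjusted p = 0.0414) without the first control heart with PE. The second Grk5 probe set gave 0.65 ± 0.28 (adjusted p = 0.367).

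The other members had smaller averaged PE differences. They were −0.24 ± 0.21 for Adra1b, 0.05 ± 0.08 for Gnaq, 0.00 ± 0.11 for Gna11, 0.14 ± 0.13 for Plcb1 and 0.04 ± 0.18 for Arrb1, each for the brightest probe set and with 95% intervals that together span −0.68 to 0.41. In SRFHKO hearts alone 0 members passed, against 0.185% of all probe sets, and 1 had an unadjusted p under 0.05, against 9.82%. In control hearts alone 0 passed, against 0.0259% of all probe sets, and 2 had an unadjusted p under 0.05, against 10.1%. The interaction of PE and genotype for Grk5 1449514_at was 0.08 ± 0.29, with a 95% interval of −0.52 to 0.68 (adjusted p = 0.965). For that interaction 0 members passed, against 0.0037% of all probe sets, and 1 had an unadjusted p under 0.05, against 7.39%. For the interaction of day and genotype 0 passed, against 0.0407% of all probe sets, and 3 had an unadjusted p under 0.05, against 12.3%.

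In the wider pathway, 98 further genes in 7 lists were followed, and 79 had a brightest probe set, chosen among _s_at and _x_at ones only where there was no other, that passed the filter. Averaged over PE, 5 of the 79 were higher and 1 was lower in SRFHKO hearts, against 6.84% of 12616 genes counted by 1 probe set each (3.43% higher and 3.41% lower). Their median log2 difference was 0.02, against −0.03 for all these genes. The lists were chosen with earlier results of these data known. Of the genes closest to the members, 0 of 3 other receptor kinases and arrestins, 0 of 10 other Gq and phospholipase C genes, 0 of 12 RGS proteins and 0 of 1 other adrenergic receptors passed by their brightest probe set. The smallest p in these lists belonged to Grk3 (0.49 ± 0.35, adjusted p = 0.465) and Grk6 (−0.04 ± 0.14, adjusted p = 0.907) among the kinases and arrestins, and to Plcb3 (−0.35 ± 0.18, adjusted p = 0.285) and Plcg1 (−0.18 ± 0.11, adjusted p = 0.396) among the phospholipases. Among the RGS proteins they were Rgs7 (0.67 ± 0.29, adjusted p = 0.193) and Rgs12 (0.29 ± 0.15, adjusted p = 0.270), and Adra2c was at −0.38 ± 0.37 (adjusted p = 0.607). With PE 0 of 79 passed, against 1.18% of genes, without PE 1 passed, against 2.24%, and at day 8 0 passed, against 0.0713%.

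The genes that passed averaged over PE were spread over 3 lists. They were 3 higher and 1 lower of 32 genes of Gs, Gi and cyclic AMP signalling, 1 higher of 18 genes downstream of phospholipase C and 1 higher of 3 other Gq coupled receptors. Prkar1a, the RI alpha regulatory subunit of protein kinase A, had log2 levels of 11.80 to 12.06 in SRFHKO hearts with PE, against 11.39 to 11.48 in control hearts with PE, and 11.51 to 11.81 in SRFHKO hearts without PE, against 10.81 to 11.32 in control hearts without PE. The genotypes did not overlap in either pair, and the averaged difference was 0.53 ± 0.09 (adjusted p = 0.00165). Its second probe set, 1425550_a_at, gave 0.73 ± 0.12 (adjusted p = 0.00115), and 1447635_at gave −0.31 ± 0.27 (adjusted p = 0.553). Prkar1a was also the gene that passed without PE, at 0.55 ± 0.12 (adjusted p = 0.0268), and it no longer passed there without the third control heart (0.41, adjusted p = 0.114), the second SRFHKO heart (0.57, adjusted p = 0.0696) or the third SRFHKO heart (0.47, adjusted p = 0.127). Its probe set 1425550_a_at also passed without PE, at 0.82 ± 0.16 (adjusted p = 0.0159). Of the 6 fits that left out 1 heart, 3 kept this call. At day 8 the brightest probe set lay at 11.52 to 11.79 in SRFHKO hearts, against 11.18 to 11.45 in control hearts. There 1425550_a_at lay at 10.82 to 11.17, against 10.16 to 10.45. The genotypes did not overlap for either, and neither passed the test at day 8.

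Adcy5, a main adenylyl cyclase of the heart, was the gene that fell by its brightest probe set, 1455296_at. The log2 levels were 7.14 to 7.27 in SRFHKO hearts with PE, against 7.58 to 7.94 in control hearts with PE, and 7.04 to 7.80 in SRFHKO hearts without PE, against 7.77 to 7.87 in control hearts without PE. The genotypes did not overlap with PE, and 1 SRFHKO heart without PE lay among the control hearts. The averaged difference was −0.52 ± 0.12 (adjusted p = 0.0170), and it was −0.44 (adjusted p = 0.0514) without the third SRFHKO heart without PE. The other Adcy5 probe set tested, 1447696_x_at, had the opposite sign, at 0.13 ± 0.12 (adjusted p = 0.608), so that the fall of Adcy5 rests on 1 probe set. Gnao1, the Go alpha subunit, rose by 0.69 ± 0.19 (adjusted p = 0.0355), and Gng10, a G protein gamma subunit, rose by 0.32 ± 0.08 (adjusted p = 0.0289). Each of these lost its call when any of 7 single hearts was left out of the 12, with adjusted p up to 0.0906 for Gnao1 and 0.0819 for Gng10. Gnai1, an inhibitory G alpha subunit, and Gnb1, a G beta subunit, passed by a probe set other than the one counted and are not in the counts above. Gnai1 1454959_s_at gave 0.52 ± 0.14 (adjusted p = 0.0276), against 0.46 ± 0.16 (adjusted p = 0.0968) by 1434440_at, the one counted, and −0.12 ± 0.22 (adjusted p = 0.796) by 1427510_at. Gnb1 1417432_a_at gave 0.39 ± 0.11 (adjusted p = 0.0380), against 0.46 ± 0.15 (adjusted p = 0.0729) by the one counted. Of the 12 fits that left out 1 heart, 6 kept the Gnai1 call and 3 the Gnb1 call, the Gnai1 adjusted p reaching 0.0690. With array brightness in the fit, the adjusted p was 0.166 for Gnai1, 0.569 for Gnb1, 0.0756 for Prkar1a by its brightest probe set, 0.155 for Adcy5, 0.256 for Gnao1 and 0.417 for Gng10. Prkar1a 1425550_a_at kept its averaged call in 12 of 12 other settings, array brightness among them, with adjusted p up to 0.0290.

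F2r, the thrombin receptor PAR1, which couples to Gq among other G proteins, was higher both with deletion and with PE. Its log2 levels were 9.70 to 9.96 in SRFHKO hearts with PE, 9.29 to 9.43 in control hearts with PE, 9.19 to 9.31 in SRFHKO hearts without PE and 8.36 to 9.16 in control hearts without PE. The deletion difference was 0.47 ± 0.11 averaged over PE (adjusted p = 0.0142), and the PE difference was 0.54 ± 0.11 averaged over genotype (adjusted p = 0.0255). A second probe set, 1450852_s_at, gave 0.72 ± 0.19 with deletion (adjusted p = 0.0273) and 0.59 ± 0.19 with PE (adjusted p = 0.176), and 6 of the 12 fits that left out 1 heart kept its deletion call. The PE call of the brightest was lost when any of 7 single hearts was left out, with adjusted p up to 0.0974, and the deletion call was lost with array brightness in the fit (0.22, adjusted p = 0.511). Camk2d, a calcium and calmodulin dependent kinase, gave 0.44 ± 0.13 (adjusted p = 0.0488) by its brightest probe set and −0.67 ± 0.17 (adjusted p = 0.0287) by 1439168_at, so that its direction is uncertain. These calls were lost when any of 10 and any of 6 single hearts was left out. The probe set 1439168_at was also higher with PE averaged over genotype, at 0.83 ± 0.17 (adjusted p = 0.0339), where the brightest gave 0.32 ± 0.13 (adjusted p = 0.320). That call was kept in 5 of the 12 fits that left out 1 heart, with adjusted p up to 0.114.

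Agtr1a, the angiotensin II type 1a receptor and another Gq coupled receptor, was lower with PE. With F2r it made 1 lower and 1 higher of the 79 genes in the PE comparison averaged over genotype, where 0.713% of genes passed (0.539% higher and 0.174% lower). Its log2 levels were 8.18 to 8.89 in SRFHKO hearts with PE, against 9.25 to 9.47 in SRFHKO hearts without PE, and 8.16 to 8.67 in control hearts with PE, against 8.72 to 9.15 in control hearts without PE. The groups did not overlap in either genotype. The PE difference was −0.63 ± 0.12 averaged over genotype (adjusted p = 0.0164) and −0.84 ± 0.16 in SRFHKO hearts alone (adjusted p = 0.0408), where 0.222% of genes passed. The averaged call was lost without the third control heart without PE (−0.56, adjusted p = 0.0506). The call in SRFHKO hearts alone was lost without any of 5 of the 6 hearts compared, all but the first with PE, with adjusted p up to 0.264. The interaction of PE and genotype was −0.42 ± 0.23 (adjusted p = 0.723).

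Rgs2, a regulator that speeds the turning off of Gq, was measured by several probe sets. The brightest, 1419247_at, passed in no comparison, and 2 others did. For 1419248_at the log2 levels were 7.81 to 8.36 in SRFHKO hearts with PE, 8.08 to 8.66 in control hearts with PE, 9.14 to 9.78 in SRFHKO hearts without PE and 7.70 to 9.07 in control hearts without PE. By this probe set the SRFHKO hearts without PE lay above every other day 25 heart. The difference of SRFHKO against control without PE was 1.25 ± 0.26 (adjusted p = 0.0199), and that of PE against no PE in SRFHKO hearts was −1.49 ± 0.26 (adjusted p = 0.0265). For 1447830_s_at these differences were 0.92 ± 0.26 (adjusted p = 0.0670) and −1.51 ± 0.26 (adjusted p = 0.0253). The brightest probe set gave 1.01 ± 0.29 (adjusted p = 0.0770) and −1.30 ± 0.29 (adjusted p = 0.0793). By both of these, SRFHKO and control hearts without PE overlapped. The levels were 8.76 to 9.54 against 7.86 to 8.83 for 1447830_s_at, and 9.37 to 9.95 against 7.90 to 9.57 for the brightest.

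The interaction of PE and genotype for Rgs2 was −1.56 ± 0.37 for 1419248_at (adjusted p = 0.439) and −1.31 ± 0.42 for 1419247_at (adjusted p = 0.546), and it did not pass the test. The call of 1419248_at without PE was lost without the first or the third control heart (adjusted p = 0.0724 and 0.0861) or the second or the third SRFHKO heart (adjusted p = 0.0765 and 0.0929). Its call with PE in SRFHKO hearts was lost without the second or the third SRFHKO heart without PE (adjusted p = 0.110 and 0.0963) or the second with PE (adjusted p = 0.176). For 1447830_s_at the PE call in SRFHKO hearts was lost without the same 3 hearts (adjusted p = 0.110, 0.0845 and 0.171). Averaged over genotype 1447830_s_at was lower with PE, at −0.84 ± 0.18 (adjusted p = 0.0403), and 4 of the 12 fits that left out 1 heart kept this call. Rgs3, another RGS protein, passed without PE by 1425701_a_at, at 0.92 ± 0.24 (adjusted p = 0.0477), and by neither its brightest probe set (0.50 ± 0.19, adjusted p = 0.180) nor 1449516_a_at (−0.15 ± 0.19, adjusted p = 0.734). The call was kept in 1 of the 6 fits that left out 1 of the hearts compared, with adjusted p up to 0.210. Plcd1, a phospholipase C of the delta class, gave −0.35 ± 0.10 by 1416675_s_at averaged over PE (adjusted p = 0.0499), against −0.23 ± 0.15 (adjusted p = 0.430) by the one counted. The value of 1416675_s_at was 0.0053 when the deposited signals were left unscaled, and its call was lost when any of 11 of the 12 hearts was left out.

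**Figure D5:**
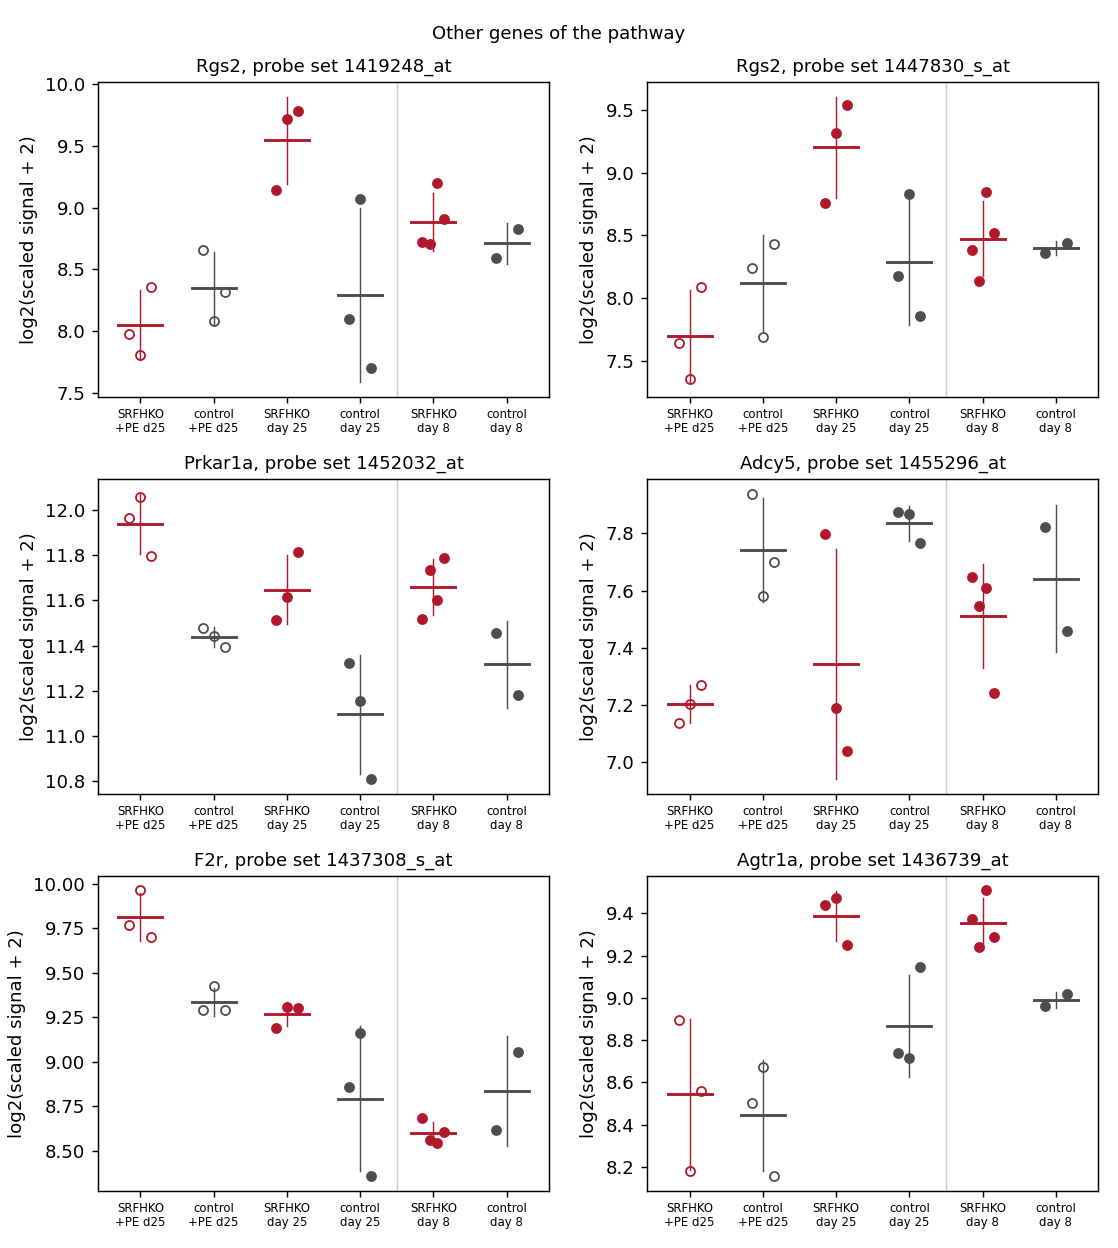
Log2(scaled signal + 2) on each array, by group, for 2 Rgs2 probe sets and for Prkar1a, Adcy5, F2r and Agtr1a; red is SRFHKO, grey control and open points PE, bars are group means and lines 1 SD, and each panel has its own axis. Rgs2 1419248_at lies at 7.81 to 8.36 in SRFHKO hearts with PE and at 9.14 to 9.78 in SRFHKO hearts without PE.

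Across the 18 arrays, the genes whose log2 level was most like that of each member were found among 12615 other genes by Pearson r, as a description of arrays that share group, day and scaling. Grk5 was most like Efcab14 (r = 0.94) and Pwwp3b (r = 0.92). Gnaq, read by 1429559_at, was most like Gna11, another member, read by 1449144_at (r = 0.90), and Snd1 (r = 0.87). Both of these member probe sets separated by day. The other Gnaq probe sets had r of −0.42 to 0.64 with 1429559_at, and the other Gna11 probe set had r of −0.09 with 1449144_at. Gna11 was most like 2810025M15Rik and Rbfox2 (r = 0.94 for each). The values for Plcb1 were 0.88 with Zadh2 and 0.84 with Pak1ip1. Those of Arrb1 were 0.81 with Zfp112 and 0.78 with Zik1, and those of Adra1b were 0.79 with Slc26a10 and 0.78 with 1110008P14Rik.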

How the data were processed

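RNA from 18 ventricles was hybridised on Affymetrix arrays as biotin-labelled cRNA made after Trizol extraction, per the labels' protocols. The deposited table holds 1 intensity per probe set and array on a linear scale, and GCOS is the tool named in the submitters' processing notes. Neither the signal algorithm nor a scaling target is stated in the labels. Array medians differed, so each array was scaled to a common 2% trimmed mean. Of 45101 probe sets, 64 control probe sets were left out. Those with a mean log2(scaled signal + 2) above the 40th percentile (3.58) were tested, 27022 in all. The platform annotation gave 1 symbol to 34945 probe sets, several to 932 and none to 9160. Groups came from the sample titles, which call the replicates biological.

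Limma 3.58.1 (R 4.3.3) was fitted with 1 mean per group over the 18 arrays, with an intensity trend, and two-sided p-values were adjusted by Benjamini-Hochberg over all tested probe sets at a threshold of 0.05. The fit was run on simulated data with planted differences and independent noise. These held no brightness difference between arrays, so they could not test how the calls depend on scaling. The brightest probe set of a gene led its description, an _x_at or _s_at one only where there was no other. All members were given. Pathway genes were named where any of their probe sets passed, and for lists with no call by a brightest probe set, the 2 genes with the smallest p for deletion averaged over PE. The number of arrays limits the precision. The members and lists were chosen with earlier results of these data known. Other scalings, filters, pseudocounts, fits and omissions of single arrays were tried as alternatives.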

Additional observations from a re-analysis of the deposited data

How the results depend on the processing

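The Grk5 probe set 1449514_at kept its direction and its call in SRFHKO against control averaged over PE in 13 of 13 other settings, with log2 differences of 1.28 to 1.70, and in all 12 fits that left out a heart, at 1.24 to 1.46. With PE it was called in 13 of 13 settings and all 6 omissions. Without PE it was called in 12 of 13, and was not called with only the groups compared in the fit (adjusted p = 0.0524). The member count without PE, 2 as reported, was 1 with 1 probe set per gene, with array brightness as covariate and without the intensity trend, and 0 with only the groups compared. Omissions gave 1 to 2, with 1 without the third control, the second SRFHKO or the third SRFHKO heart. The count with PE, 1 as reported, was 2 with only the groups compared. The count averaged over PE, 2 as reported, was 7 with the deposited signals unscaled and 1 with 1 probe set per gene or with array brightness. The 2 probe sets reported, here and without PE, were both of Grk5. The setting with 1 probe set per gene could therefore count Grk5 only once. The PE count averaged over genotype, 0 as reported, was 1 with median scaling, with a filter at the 60th percentile and with 1 probe set per gene, and 0 to 1 over omissions. The count for the interaction of day and genotype, 0 as reported, was 1 with median scaling. With unscaled signals Gna11 1434254_at without PE was 0.23, against −0.18 as reported, and Plcd1 1416675_s_at averaged over PE was 0.0053. Unscaled signals moved the median averaged difference of all probe sets to 0.31 and median scaling moved it to 0.14, against −0.03 as reported, so that 97.9% and 91.2% of calls were higher in SRFHKO hearts, against 52.7%. The causes of the other changes were not tested.

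Calls over all probe sets ranged with the setting from 160 with array brightness to 5706 unscaled averaged over PE (1580 as reported). The range was 60 to 2092 without PE (590), 47 to 352 with PE (251), 2 to 80 at day 8 (43), 2 to 122 for PE in SRFHKO hearts (50), 0 to 15 for PE in control hearts (7), 19 to 227 for PE averaged over genotype (149), 0 to 349 for the interaction of day and genotype (11) and 0 to 4 for that of PE and genotype (1). Leaving out 1 heart gave 940 to 1675 averaged over PE, 92 to 747 without PE, 48 to 298 with PE and 7 to 379 at day 8, the highest without the first control heart at day 8. It gave 2 to 116 for PE in SRFHKO hearts, 4 to 17 for PE in control hearts, 64 to 239 for PE averaged over genotype, 3 to 79 for the interaction of day and genotype and 0 to 3 for that of PE and genotype. Replicate numbers were shared by the day 25 groups. Deviations of same-numbered hearts had correlations of −0.045 to 0.074 over 18 pairs, none over 0.1, against −0.074 to 0.056 over 36 pairs of different number. Of the 12 arrays, 9 but not all correlated best on average with their own number. The design gave no pairing, and pairing was not tested apart from array brightness. In every day 25 group the trimmed mean signal before scaling was highest in replicate 2 and lowest in replicate 3. With the replicate number as a block, the averaged difference of Grk5 1449514_at was 1.34 ± 0.16 (adjusted p = 0.000867), the member counts did not move, and 1509 probe sets were called.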
